A study of Mus musculus with 40 samples.

Results

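Hba-a1 and Hba-a2 are the adult alpha-globin genes of the mouse, and their exon and intron counts were read in 40 RNA-seq libraries from 20 mice. They are 2 of the 6 adult globin genes in the deposited table, and the other 4 are the adult beta genes, used here only as a sum. The members were taken by name, as the count columns Hba-a1, Hba-a2 and Ambiguous, in every library. The last column was taken to hold alpha reads that could not be given to either gene, which its header does not state. Each mouse gave a library from bone marrow and a library from spleen, made from total RNA of Ter119+ cells, the red-cell lineage cells that anti-Ter-119 magnetic beads retain. The 8 groups had 5 libraries each. By genotype they were WT (wild type) or th3/+, carrying on 1 chromosome the Hbb th3 deletion of the adult beta-globin genes, a model of beta-thalassemia. The rest of their beta locus was of the single haplotype, with Hbb-bs and Hbb-bt, or of the diffuse haplotype, with Hbb-b1 and Hbb-b2. All are labelled strain C57BL/6J. The age of the mice, and how the diffuse haplotype was brought into this strain, are not given in the sources used here. The series asks how far the haplotype changes the severity of the disease.

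Haemoglobin of adult red cells is a tetramer of alpha and beta chains, so both kinds of chain are made in large and matched amounts in erythroid cells. In beta-thalassemia too little beta chain is made, and the surplus of alpha chains precipitates and damages the cells. The mouse carries a pair of active adult alpha genes in a row, and the erythroid enhancers of the locus lie upstream of both. Intron counts are commonly taken to come mostly from unspliced precursor RNA, whereas exon counts are dominated by mature mRNA. The source of the intron reads was not tested here.

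The pair is almost identical in sequence, which limits what can be counted for each gene alone. In mm10 (GENCODE M21) Hba-a1 (ENSMUSG00000069919.7) lies at chr11:32283511-32284465 and Hba-a2 (ENSMUSG00000069917.7) at chr11:32296489-32297298, both on the plus strand. Each has 3 exons and 2 introns, and intron 1 has 122 bases and intron 2 134 bases in both genes. The 12023 bases between them hold 1 annotated gene, Hbq1b, a theta-globin gene. The coding sequences of 429 bases, stop codon included, differ at 1 base. That difference is C381T, counted from the A of the start codon with the Hba-a1 base first, in codon 127 in exon 3. It is silent, as 0 of 142 residues differ. The 30 bases around it are shown, with the differing base, the only coding base that tells the genes apart, in capitals:
Hba-a1, chr11:32284328-32284357, plus strand: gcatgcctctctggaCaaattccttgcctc
Hba-a2, chr11:32297145-32297174, plus strand: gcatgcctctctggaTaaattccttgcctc

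Outside the coding sequence the 35 transcribed bases before the start codon and the first 74 after the stop codon are also equal. This leaves 161 annotated exon bases of Hba-a1 and 16 of Hba-a2 beyond the equal part, because the annotated ends differ. The 161 bases of Hba-a1 lie upstream of its start in RefSeq, so their share of the reads depends on where transcription begins. They fall in the promoter windows compared below, which were identical, so they match bases upstream of the annotated start of Hba-a2. They therefore do not tell the genes apart by sequence. The 16 bases of Hba-a2 lie past the annotated end of Hba-a1 and were not compared. Of intron 1, 113 bases could be compared through annotated transcripts that retain it, and 0 differed. Intron 2 was not compared. The promoter windows of RefSeq (GRCm38.p6, 250 bases before to 50 after each start) were identical over all 297 aligned bases. The 250 bases before each start hold, on the plus strand, CCAAT 1 time, TATAA 1 time, CACCC 2 times and GATA 1 time in each gene, and none of them on the minus strand. On either strand these motifs are found in 33.85%, 22.78%, 52.01% and 53.62% of the same windows of 32851 genes, so the letters alone are common.

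Alpha exon counts ranged from 2122072 to 10488596 per library and alpha intron counts from 641 to 18388. Hba-a1 had 48 to 1911 uniquely assigned intron counts and Hba-a2 36 to 1186. Of the spleen WT libraries 4 stood apart, numbers 4 and 5 of the single and numbers 4 and 5 of the diffuse group. They had 0.242 to 0.538 alpha intron counts per 1000 alpha exon counts, against at least 0.946 in every other library. Their beta intron counts per 1000 beta exon counts were 0.225, 0.248, 0.375 and 0.4001, and over all libraries this value ranged from 0.225 to 1.60. Results that involve these libraries are given with and without them, and tests within mice then use the other 16 mice. They were picked for their low intron per exon values, so leaving them out raises these values in WT spleen by the choice itself. A smaller difference without them therefore does not show what that difference rests on. Of the mouse codes in the table, 4 of the 5 WT single mice belong to a JAW series and all other mice to a BZC series, so in the single haplotype genotype and code series cannot be told apart, save for WT single number 3. In the diffuse haplotype all 10 mice are of the BZC series. Haplotype and code series therefore cannot be told apart in WT mice either, save for the same mouse, whereas all th3/+ mice are of the BZC series. The table lists globin genes only, so no marker of another cell type could be read. In bulk samples fewer cells of a type and less RNA per cell cannot be told apart, and every value here is a quotient within a library.

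Hba-a2 had the lower unique count of the pair, and its share of these counts fell in th3/+ mice. The level of the share is not read here as the ratio of the transcripts. The annotated exons of the genes differ in extent, and few of their bases tell the genes apart. Hba-a1 had more uniquely assigned exon counts than Hba-a2 in 40 of 40 libraries, and more intron counts in 40 of 40. The Hba-a2 share of these exon counts lay between 37.1% and 42.0%. After division by annotated exon length, which does not correct for where the genes can be told apart, it lay between 42.6% and 47.8%. In all 4 comparisons of th3/+ with WT it was lower in th3/+, and the ratio of Hba-a2 to Hba-a1 counts changed by -9.34% to -5.23%.

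Single-haplotype bone marrow had a Hba-a2 share of 39.9%, 40.7%, 40.3%, 39.3% and 38.6% in the WT libraries. In th3/+ it was 38.0%, 37.3%, 38.1%, 38.1% and 37.7%. The highest th3/+ library was lower than the lowest WT library, with means of 39.7% ± 0.813 and 37.9% ± 0.350 (SD, n = 5 each). The log2 odds of Hba-a2 against Hba-a1 differed by -0.11 (95% interval -0.17 to -0.05, exact two-sided permutation p = 0.00794, adjusted p = 0.0106).

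In bone marrow of the diffuse haplotype the share was 39.6%, 38.8%, 40.2%, 38.8% and 39.97% in WT and 38.3%, 38.7%, 37.6%, 39.3% and 37.1% in th3/+. The groups overlapped, with th3/+ number 4 among the WT values and the other 4 below them. The log2 odds differed by -0.078 (95% interval -0.15 to -0.0053, exact permutation p = 0.0317, adjusted p = 0.0317, n = 5 each). This call was lost when any of 6 single libraries was left out, th3/+ or WT number 1, 3 or 5, with values between -0.094 and -0.060 over all 10 (exact permutation adjusted p up to 0.0873).

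In spleen the share was lower in th3/+ on both haplotypes. On the single haplotype the share was 40.3%, 41.6%, 40.5%, 42.0% and 40.9% in WT and 39.1%, 37.9%, 38.9%, 38.8% and 38.9% in th3/+. On the diffuse haplotype it was 40.1%, 40.1%, 39.9%, 41.6% and 41.8% in WT and 38.6%, 38.9%, 38.8%, 39.2% and 37.5% in th3/+. Neither pair of groups overlapped. The log2 odds differed by -0.14 (95% interval -0.20 to -0.09) on the single and -0.13 (-0.20 to -0.06) on the diffuse haplotype (exact permutation p = 0.00794, adjusted p = 0.0106, for each, n = 5 each). Without the 4 libraries of low intron count the values were -0.13 and -0.087 (exact permutation adjusted p = 0.0238 for both, 3 WT against 5 th3/+). Differences of this effect between tissues or haplotypes did not pass, and the 4 differences of log2 effects lay between -0.048 and 0.037 (residual permutation adjusted p from 0.552 to 0.677, 5 libraries a group). WT single number 3, the BZC mouse, had 40.3% in bone marrow and 40.5% in spleen, against a range in the JAW mice of 38.6% to 40.7% in bone marrow and 40.3% to 42.0% in spleen.

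**Figure D1:**
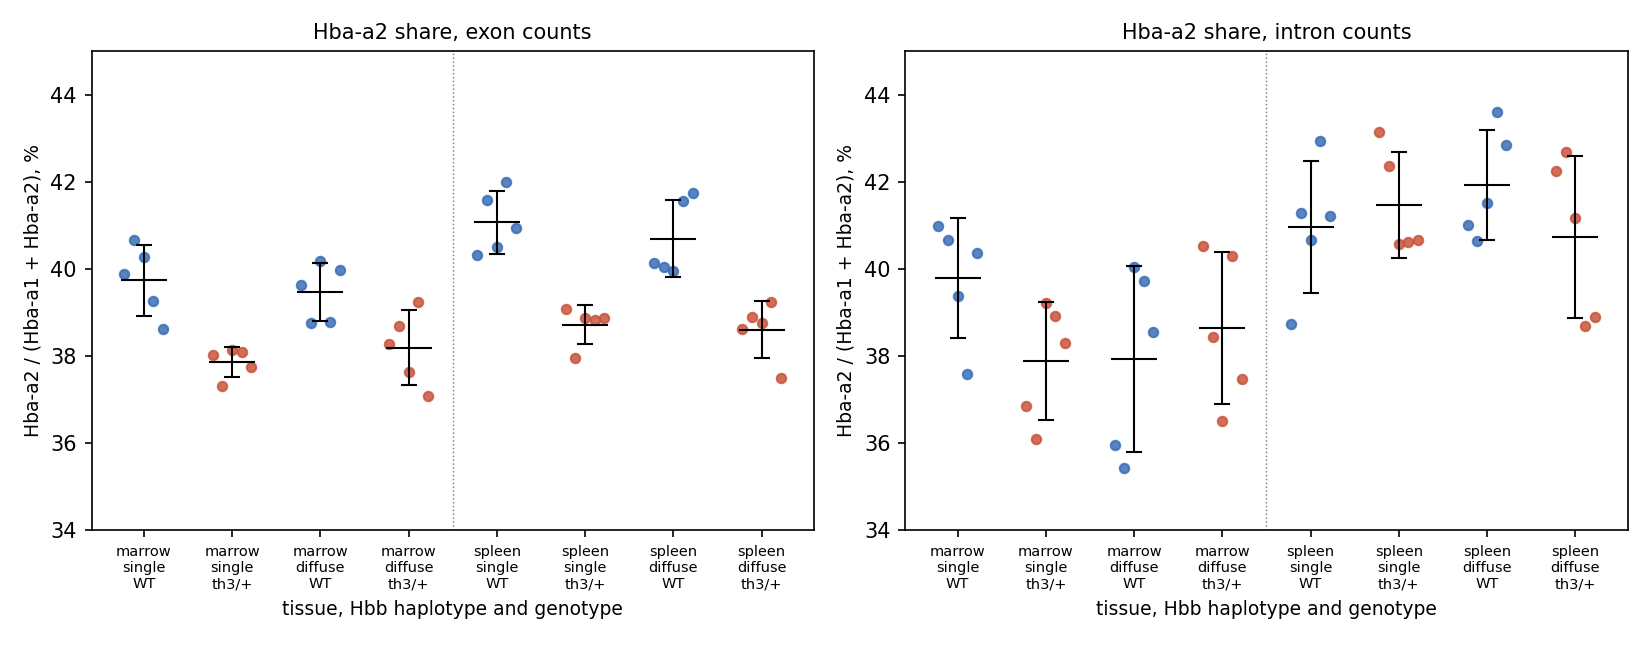
Share of Hba-a2 among reads uniquely assigned to Hba-a1 or Hba-a2, in percent, for exon counts (left) and intron counts (right). Each point is 1 library (blue WT, red th3/+), bars are the mean and SD of 5 libraries, and the axis starts at 34%. In exon counts th3/+ groups average 37.9% to 38.7% and WT groups 39.5% to 41.1%, whereas in intron counts the genotypes overlap in every pair.

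The haplotype of the beta locus did not change the Hba-a2 share of exon counts detectably. The 4 differences between diffuse and single mice in log2 odds lay between -0.023 and 0.020, and the intervals between -0.10 and 0.078 (exact permutation adjusted p = 0.683 for each, n = 5 each). A p that misses the threshold does not show that the haplotypes are alike.

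Between the tissues of a mouse the exon share of Hba-a2 was mostly higher in spleen. It was so in 18 of 20 mice, and the exceptions were WT diffuse number 3 and th3/+ diffuse number 4. The mean within-mouse difference in log2 odds was 0.058, over a range of -0.015 to 0.17. An exact sign-flip permutation test over the 20 mice, chosen after the data were seen, gave p = 1.53e-05, or 0.000147 adjusted over 11 measures. Without the mice of the 4 libraries of low intron count it was higher in 14 of 16, by a mean of 0.036 (exact sign-flip permutation p = 0.000244, adjusted p = 0.00134). In the 4 separate unpaired comparisons the differences were 0.080, 0.074, 0.052 and 0.025 for WT single, WT diffuse, th3/+ single and th3/+ diffuse mice, and none passed (exact permutation adjusted p = 0.0635, 0.0741, 0.0635 and 0.413, n = 5 each). With the mouse as a replicate block, limma called both WT groups (adjusted p = 0.0420 for each), where that fit called 45.5% of the 44 tissue comparisons over all measures. The unpaired values without the 4 libraries of low intron count were 0.064 and 0.035 for WT single and WT diffuse mice (exact permutation adjusted p = 0.286 and 0.310, 5 against 3). The blocked fit then gave 0.032 for each and called neither (limma adjusted p = 0.275 for each).

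The Hba-a2 share of intron counts gave no genotype call, although single bone marrow was called with the shared reads split evenly between the genes. An even split makes the genes more equal the more reads are shared, so that value also follows the share of unassigned reads. The Hba-a2 share of uniquely assigned intron counts lay between 35.4% and 43.6%. The library with the fewest such counts, WT diffuse spleen number 5, had 36 for Hba-a2 and 48 for Hba-a1, with a 95% Wilson interval of 32.8% to 53.5% that covers counting error only. The share of Hba-a2 in introns exceeded that in exons in 26 of 40 libraries.

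On the single haplotype the intron share was 41.0%, 40.7%, 39.4%, 37.6% and 40.4% in WT bone marrow and 36.9%, 36.1%, 39.2%, 38.9% and 38.3% in th3/+ bone marrow. In spleen it was 38.7%, 41.3%, 40.7%, 43.0% and 41.2% in WT and 43.2%, 42.4%, 40.6%, 40.6% and 40.7% in th3/+. The genotypes overlapped in both tissues. None of the 4 genotype comparisons passed, with log2 odds differing by -0.12 and 0.044 in bone marrow and by 0.030 and -0.071 in spleen, single and diffuse in turn (exact permutation adjusted p from 0.254 to 0.611, n = 5 each). Their intervals hold the difference found in exon counts in 3 of the 4, whereas in single spleen the interval of -0.089 to 0.15 does not hold the exon value of -0.14. The difference between the intron and the exon effect is tested with the quotient of both genes, given after the intron per exon values. None of the 4 haplotype comparisons passed either (exact permutation adjusted p = 0.484 for each, n = 5 each).

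By tissue the intron share rose from bone marrow to spleen. In WT diffuse mice it was 36.0%, 35.4%, 40.04%, 39.7% and 38.5% in bone marrow and 41.0%, 40.6%, 41.5%, 43.6% and 42.9% in spleen, with no overlap. The log2 odds rose by 0.24 there (95% interval 0.077 to 0.42) and by 0.22 (0.094 to 0.33) in th3/+ single mice (exact permutation p = 0.00794, adjusted p = 0.0159, for each, n = 5 each). In WT single and th3/+ diffuse mice the differences were 0.071 and 0.13 and did not pass (exact permutation adjusted p = 0.230 and 0.138). Over all mice 18 of 20 had the higher intron share in spleen, by a mean of 0.16 in log2 odds (exact sign-flip permutation p = 0.000189, adjusted p = 0.000692, 20 mice, a test chosen after the data were seen). Of the 16 mice without a library of low intron count 14 did so, by a mean of 0.15 (exact sign-flip permutation adjusted p = 0.00761). Without the 4 libraries of low intron count the WT diffuse value was 0.19 and no longer passed (exact permutation adjusted p = 0.138, 5 against 3), while limma with the mouse as a replicate block gave 0.24 (adjusted p = 0.0204). With the shared reads split evenly between the genes the WT diffuse value was 0.017 and did not pass, and the th3/+ single value was 0.024 and passed (exact permutation adjusted p = 0.175 and 0.0317, n = 5 each).

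**Figure D2:**
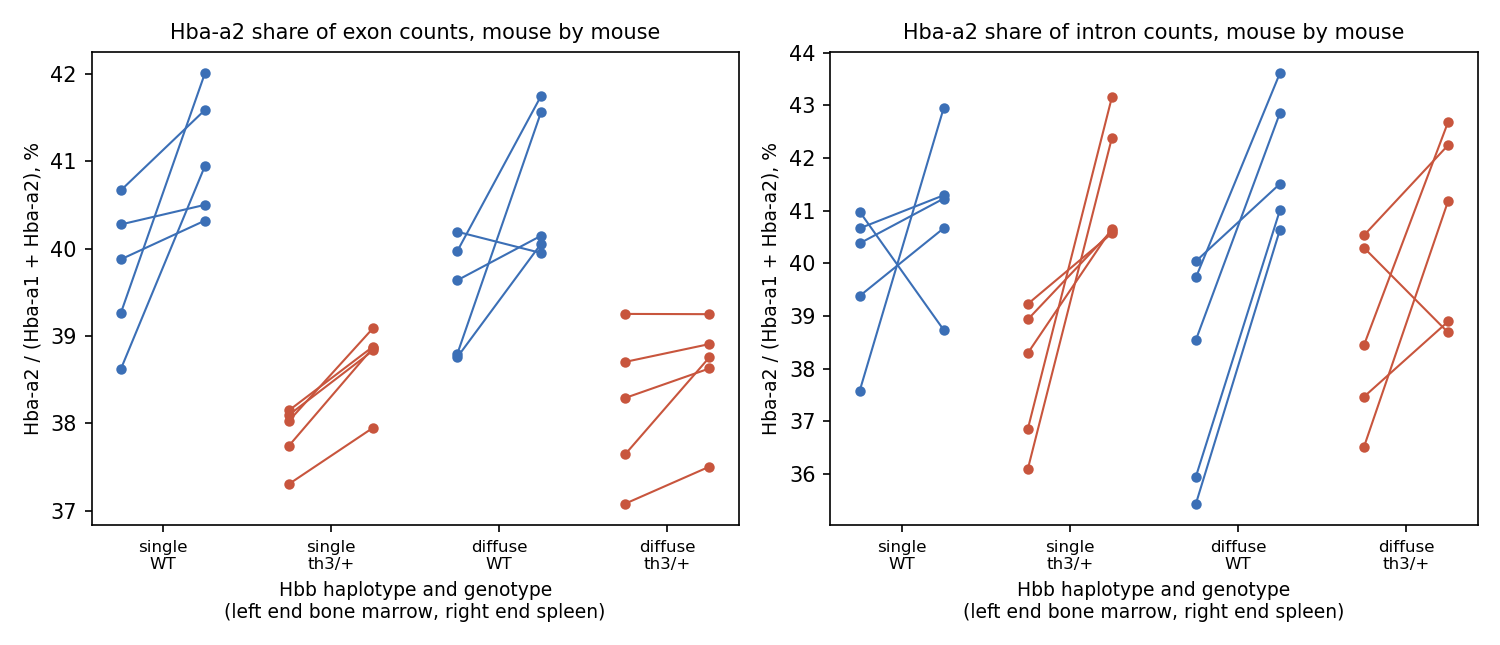
Hba-a2 share in percent in the bone marrow (left end of each line) and spleen (right end) of each of 20 mice, for exon counts (left panel) and intron counts (right panel), by haplotype and genotype (blue WT, red th3/+). The axes do not start at 0 and differ between panels. The line rises in 18 of 20 mice in each panel.

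The intron count of each alpha gene, set against its own exon count, was lower in spleen than in bone marrow of WT single mice, and that difference rested on a few libraries. In bone marrow Hba-a1 had 0.404 ± 0.0625 intron counts per 1000 exon counts in WT single, 0.428 ± 0.105 in WT diffuse, 0.368 ± 0.0660 in th3/+ single and 0.319 ± 0.0626 in th3/+ diffuse libraries (SD, n = 5 each). Hba-a2 had 0.406 ± 0.0716, 0.404 ± 0.109, 0.369 ± 0.0712 and 0.324 ± 0.0569 in the same groups. None of the genotype or haplotype comparisons in bone marrow passed for either gene (exact permutation adjusted p from 0.190 to 0.984, n = 5 each).

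In WT spleen of the single haplotype Hba-a2 had 0.321, 0.239, 0.311, 0.122 and 0.0902 intron counts per 1000 exon counts, and in th3/+ spleen 0.363, 0.433, 0.386, 0.391 and 0.428. All th3/+ libraries lay above all WT libraries. The difference was 1.05 on the log2 scale, or 2.08-fold (95% interval 1.22 to 4.02, exact permutation p = 0.00794, adjusted p = 0.0317, n = 5 each). Without WT numbers 4 and 5, picked for low intron counts, it was 0.47 (exact permutation p = 0.0179, adjusted p = 0.0714, 3 against 5). That p is the smallest that 3 against 5 allows, and the other WT libraries still lay below all th3/+ libraries. The call was also lost when any 1 of the 5 th3/+ libraries was left out, with values between 0.78 and 1.24 over all 10 libraries (exact permutation adjusted p up to 0.127).

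For Hba-a1 the same spleen comparison gave 0.343, 0.242, 0.309, 0.118 and 0.0892 in WT and 0.307, 0.360, 0.359, 0.363 and 0.397 in th3/+. WT number 1 lay among the th3/+ values. The log2 difference of 0.88 did not pass (exact permutation p = 0.0238, adjusted p = 0.0952, n = 5 each), and it was 0.27 without WT numbers 4 and 5. On the diffuse haplotype the spread of WT spleen was wider still, with 0.366, 0.275, 0.457, 0.0713 and 0.0573 for Hba-a1 and 0.379, 0.282, 0.488, 0.0775 and 0.0599 for Hba-a2. The th3/+ libraries there had 0.260 to 0.471 for Hba-a1 and 0.302 to 0.499 for Hba-a2. The log2 differences were 0.95 and 1.00 and did not pass (exact permutation adjusted p = 0.328 and 0.296, n = 5 each). Without WT numbers 4 and 5 they were -0.047 and 0.021.

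Between the tissues of WT single mice both genes fell in spleen, by 1.05 (Hba-a1) and 1.06 (Hba-a2) on the log2 scale. All 5 spleen libraries lay below all 5 bone marrow libraries (exact permutation p = 0.00794, adjusted p = 0.0317, for each gene). Without spleen numbers 4 and 5 the differences were -0.44 and -0.48 and did not pass (exact permutation adjusted p = 0.143 for each, 5 against 3), and leaving out any 1 of the 5 bone marrow libraries also ended both calls. The other spleen libraries still lay below all 5 bone marrow libraries. In WT diffuse mice the differences were -1.21 and -1.05, and they did not pass (exact permutation adjusted p = 0.206 and 0.286), while limma with the mouse as a replicate block called both (adjusted p = 0.0155 and 0.0231). Without spleen numbers 4 and 5 the WT diffuse values were -0.22 and -0.065, or -0.28 and -0.074 with the block, and neither fit called them (exact permutation adjusted p = 0.677 and 0.839, limma adjusted p = 0.296 and 0.682). In th3/+ mice they lay between -0.026 and 0.24 and none passed (exact permutation adjusted p from 0.286 to 0.913).

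The sum of all alpha reads, shared reads included, had higher values, since most alpha intron reads were shared. It had 2.21 ± 0.477 and 2.13 ± 0.613 intron counts per 1000 exon counts in WT single and WT diffuse bone marrow, and 1.56 ± 0.357 and 1.35 ± 0.285 in th3/+ (SD, n = 5 each). In bone marrow the th3/+ values were thus lower, by 0.52 and 0.63 on the log2 scale, which did not pass after adjustment (exact permutation p = 0.0397 and 0.0317, adjusted p = 0.0794 for each). In WT single mice the sum fell by 1.26 from bone marrow to spleen (exact permutation adjusted p = 0.0317, n = 5 each), and by 0.73 without spleen numbers 4 and 5 (exact permutation adjusted p = 0.143, or limma with the mouse as a replicate block, adjusted p = 0.00515). Leaving out any 1 of the bone marrow libraries also ended this call (-1.44 to -1.05 over all 10).

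**Figure D3:**
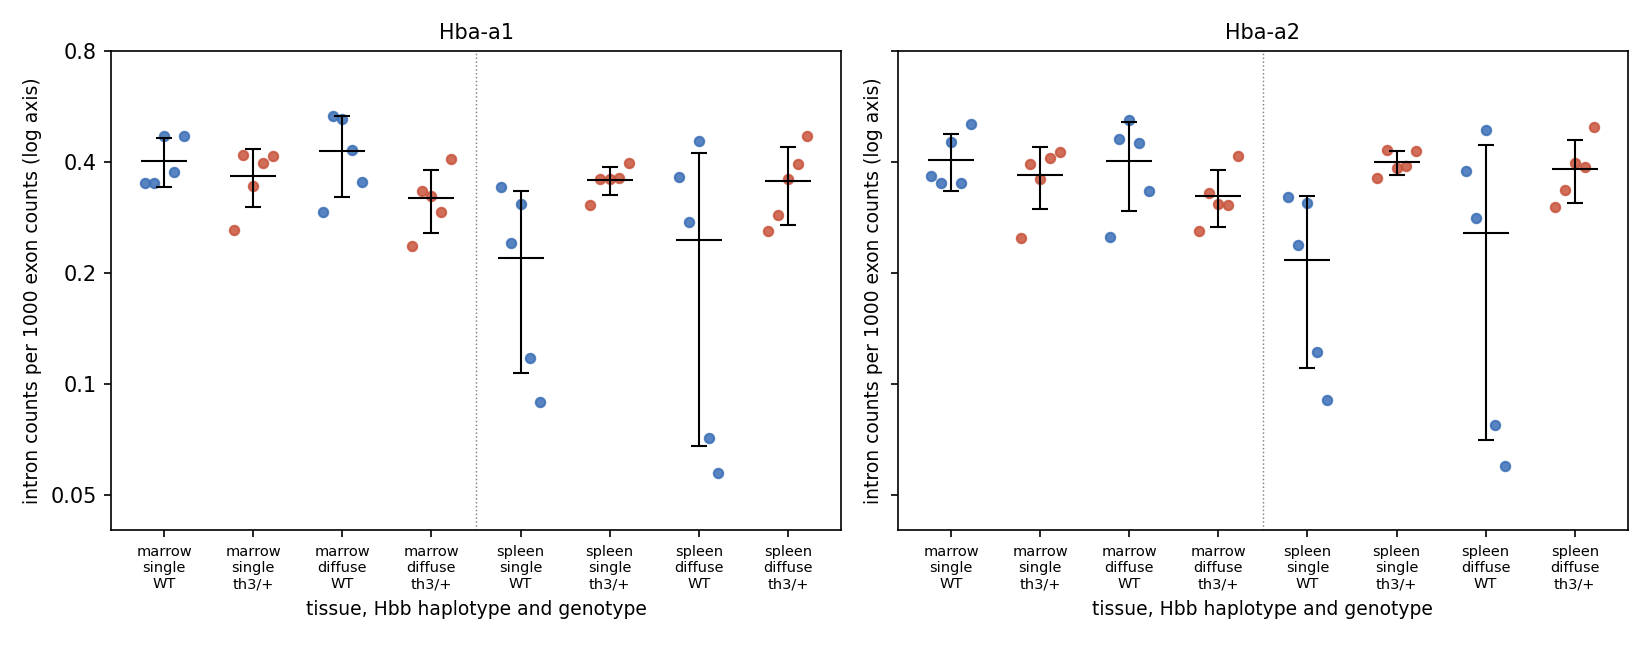
Intron counts per 1000 exon counts of Hba-a1 (left) and Hba-a2 (right) on a log axis, from uniquely assigned reads. Each point is 1 library (blue WT, red th3/+), and bars are the arithmetic mean and SD of 5 libraries. In each gene the 4 lowest points are WT spleen libraries, numbers 4 and 5 of both haplotypes.

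On the single haplotype the th3/+ effect on intron per exon counts differed between tissues for Hba-a2 and the alpha sum. This held by the residual permutation test, but not by limma or edgeR without a block. None of these pairs the tissues of a mouse, whereas limma with the mouse as a replicate block called both. For Hba-a2 the log2 effect was -0.15 in bone marrow and 1.05 in spleen, a difference of 1.20 (residual permutation p = 0.00735, adjusted p = 0.0294, 5 libraries a group). For the alpha sum it was -0.52 and 0.62, a difference of 1.14 (residual permutation adjusted p = 0.0425). The adjusted p was 0.0692 and 0.0948 with limma and 0.169 and 0.151 with edgeR for Hba-a2 and the sum. For Hba-a1 the difference of 1.03 did not pass (residual permutation adjusted p = 0.0958), nor did the differences of 1.36, 1.29 and 1.37 for Hba-a1, Hba-a2 and the sum on the diffuse haplotype (residual permutation adjusted p from 0.123 to 0.142). With the mouse as a replicate block limma called these 3 (adjusted p = 0.0348, 0.0349 and 0.0222). These diffuse values without the 4 libraries of low intron count were 0.36, 0.31 and 0.36 (residual permutation adjusted p from 0.329 to 0.478). With the block they were then 0.42, 0.32 and 0.47 and none was called (limma adjusted p = 0.137, 0.178 and 0.0602). On the single haplotype the values without them were 0.62 and 0.61 for Hba-a2 and the alpha sum and did not pass (residual permutation adjusted p = 0.0538 and 0.162), and with the block they were 0.57 and 0.60 and were called (limma adjusted p = 0.0456 and 0.0404). Leaving out 1 library ended the call for Hba-a2 in 8 of 20 cases, namely bone marrow th3/+ 1 and 3, bone marrow WT 3 and 5 and spleen th3/+ 2 to 5, with values of 0.93 to 1.39. It ended the call for the alpha sum in 15 of 20, all but bone marrow th3/+ 2, bone marrow WT 2 and 4 and spleen WT 1 and 3, with values of 0.93 to 1.31.

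Within a library, the intron per exon value of Hba-a2 divided by that of Hba-a1 equals the odds of Hba-a2 in introns over those in exons, so it tests whether introns and exons differ. It ranged from 0.855 to 1.20, and it exceeded 1 in 17 of 20 spleen libraries and in 9 of 20 bone marrow libraries. In single spleen it was 0.936, 0.988, 1.01, 1.04 and 1.01 in WT and 1.18, 1.20, 1.07, 1.08 and 1.08 in th3/+, with no overlap. The difference was 0.17 on the log2 scale (95% interval 0.072 to 0.28, exact permutation p = 0.00794, adjusted p = 0.0317, n = 5 each). The other 3 genotype differences lay between -0.0025 and 0.12 and did not pass (exact permutation adjusted p from 0.222 to 0.960). From bone marrow to spleen the quotient rose in th3/+ single mice, by 0.16, and in WT diffuse mice, by 0.17 (exact permutation adjusted p = 0.0317 and 0.0476, n = 5 each). The genotype value without the 4 libraries of low intron count was 0.20 and the WT diffuse tissue value 0.15 (exact permutation adjusted p = 0.0714 and 0.179), and with the mouse as a replicate block limma then called the latter at 0.21 (adjusted p = 0.0303). That genotype value had the smallest p that 3 against 5 allows, and its groups still did not overlap. The WT diffuse call was lost when any 1 of its 5 spleen libraries was left out (0.13 to 0.20 over all 10). With the shared reads split evenly between the genes, the tissue differences turned to -0.013 and -0.029 (exact permutation adjusted p = 0.405 and 0.286). An even split makes the genes more equal the more reads are shared, and the shared part of intron reads itself differed between tissues, as given below. The split therefore cannot decide the direction, which remains unsettled for the shared reads.

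Reads that could not be assigned to a gene took 28.3% to 36.3% of alpha exon counts and 78.4% to 89.1% of alpha intron counts. In exon counts none of the 12 comparisons of genotype, haplotype and tissue passed the exact permutation test, with 3 of 12 below an unadjusted p of 0.05, while limma and edgeR each called 2 of the 4 genotype comparisons. Over all measures these fits called 47.7% and 50.0% of the genotype comparisons, so those 2 of 4 are near the background. In intron counts the unassigned share was lower in th3/+. On the single haplotype it was 88.7%, 86.9%, 89.1%, 85.9% and 88.0% in WT bone marrow and 82.9%, 85.6%, 83.0%, 82.9% and 83.2% in th3/+ bone marrow, with no overlap. The log2 odds differed by -0.50 there, by -0.36 in diffuse bone marrow and by -0.46 in single spleen (exact permutation adjusted p = 0.0159, 0.0212 and 0.0159, n = 5 each). In diffuse spleen the value was -0.29 and did not pass (exact permutation adjusted p = 0.0952), but without the 4 libraries of low intron count it was -0.33 and passed (exact permutation adjusted p = 0.0179, 3 against 5). The unassigned intron share was also lower in spleen than in bone marrow in 18 of 20 mice, by a mean of 0.26 in log2 odds (exact sign-flip permutation p = 2.67e-05, adjusted p = 0.000147, a test chosen after the data were seen), and in 16 of 16 without the mice of the 4 libraries. A uniquely assigned intron count is therefore a small and changing part of the alpha intron reads, and the part of this in the results for each gene was not tested.

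**Figure D4:**
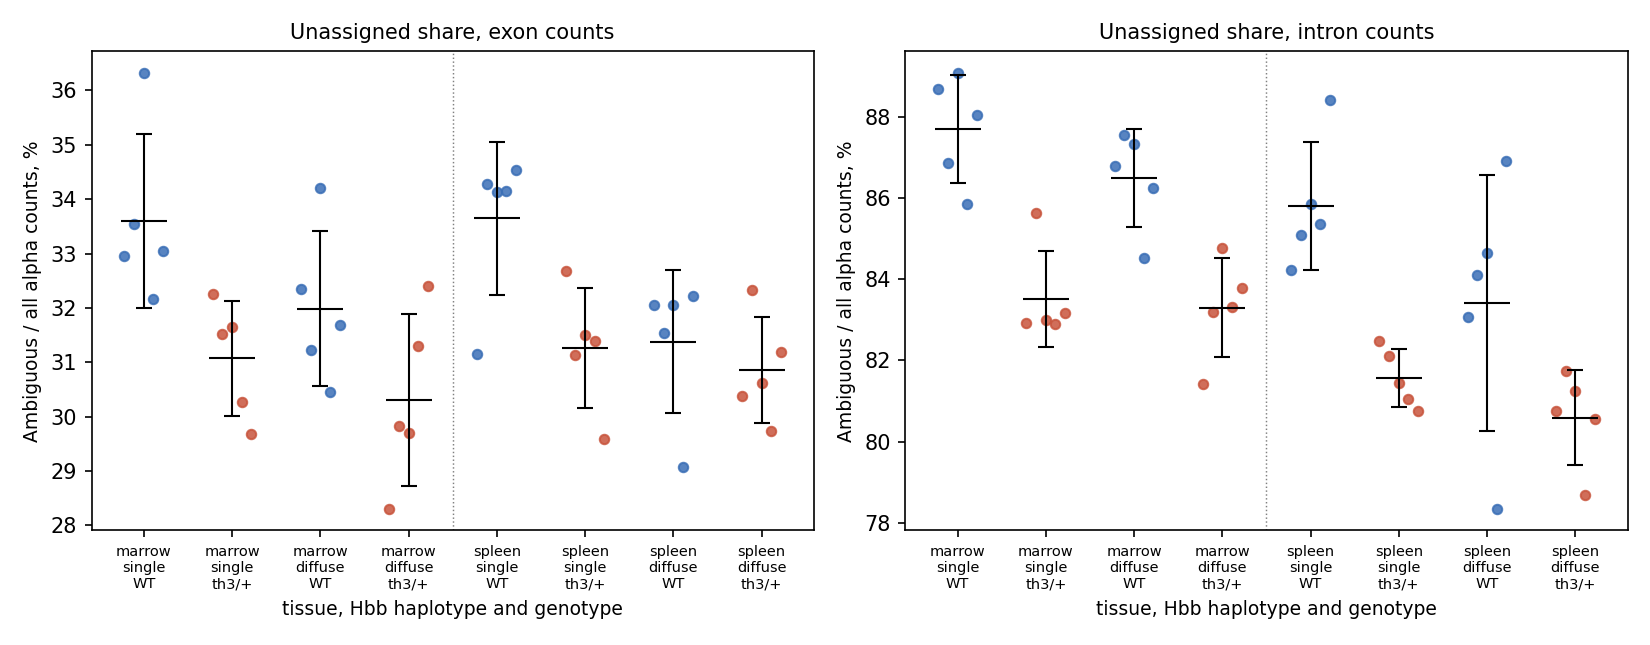
Share of alpha reads assigned to neither gene, in percent of all alpha counts, for exon counts (left) and intron counts (right). Each point is 1 library (blue WT, red th3/+), bars are the mean and SD of 5 libraries, and the axes differ and do not start at 0. In introns the th3/+ groups average 80.6% to 83.5% and the WT groups 83.4% to 87.7%.

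Set against the beta genes, alpha took a larger part of globin RNA in th3/+ mice, in exon and in intron counts. By exon counts alpha made up 28.0% ± 2.99 and 24.1% ± 2.90 of globin exon counts in WT single and WT diffuse bone marrow and 46.3% ± 2.83 and 41.4% ± 1.10 in th3/+ (SD, n = 5 each). In spleen it was 32.1% ± 1.85 and 25.6% ± 2.61 in WT and 44.6% ± 1.95 and 40.2% ± 1.06 in th3/+. All 5 th3/+ libraries lay above all 5 WT libraries in the 4 comparisons (exact permutation adjusted p = 0.00794 for each, the smallest the design allows). The share was lower in diffuse than in single mice in all 4 comparisons of haplotypes, by 0.26 to 0.46 in log2 odds (exact permutation adjusted p = 0.0106 for 3 and 0.0476 for WT bone marrow, n = 5 each). The haplotypes carry different beta genes, and how completely the exons of each were counted was not tested. The WT comparisons of haplotypes are also bound to the code series. In WT bone marrow the call was lost when any of 6 single libraries was left out, numbers 1, 2 and 3 of the diffuse and 2, 3 and 4 of the single group (log2 odds from -0.34 to -0.20). It was also lost with Hba-a1 alone or Hba-a2 alone in place of the alpha sum, at -0.25 and -0.27 (exact permutation adjusted p = 0.159 and 0.103). In WT spleen it was -0.38 without the 4 libraries of low intron count (exact permutation adjusted p = 0.1, 3 against 3, where no lower p is possible).

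Intron counts showed a wider gap between the haplotypes. In bone marrow alpha took 57.2%, 55.1%, 57.6%, 56.1% and 58.2% of globin intron counts in WT single libraries and 31.2%, 38.0%, 33.3%, 34.2% and 32.3% in WT diffuse libraries. In th3/+ bone marrow it took 70.7%, 73.2%, 73.8%, 71.4% and 70.6% on the single and 44.3%, 49.2%, 49.0%, 47.0% and 51.9% on the diffuse haplotype. Neither the genotypes nor the haplotypes overlapped. The th3/+ effect in log2 odds was 0.96 (95% interval 0.83 to 1.10) and 0.87 (0.63 to 1.10) in bone marrow and 1.15 (0.99 to 1.30) and 1.38 (0.82 to 2.12) in spleen, single and diffuse in turn (exact permutation adjusted p = 0.00794 for each, n = 5 each). Without the 4 libraries of low intron count the spleen values were 1.06 and 0.94. Diffuse mice lay below single mice by 1.37 to 1.69 in log2 odds in the 4 comparisons (exact permutation adjusted p = 0.00794 for each, n = 5 each). The beta genes of the haplotypes are different genes, and how completely the introns of each were counted was not tested. In WT spleen the value was -1.33 without the 4 libraries of low intron count (exact permutation adjusted p = 0.1, 3 against 3). The WT comparisons of haplotypes are again bound to the code series. The BZC mouse of WT single, number 3, had 57.6% in bone marrow and 54.0% in spleen, against 55.1% to 58.2% and 50.4% to 55.4% in the JAW mice.

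**Figure D5:**
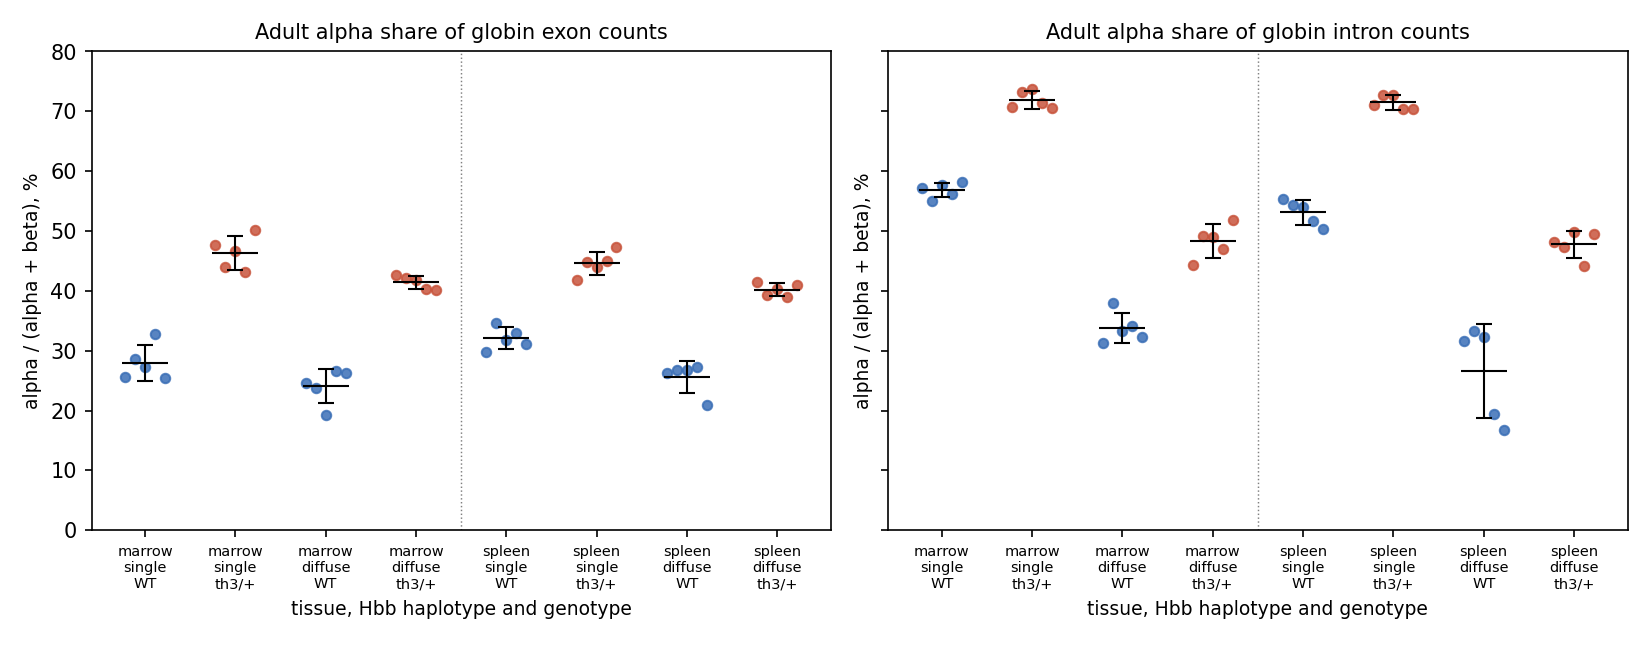
Adult alpha counts in percent of all adult globin counts, for exons (left) and introns (right). Each point is 1 library (blue WT, red th3/+) and bars are the mean and SD of 5 libraries. Both shares are higher in th3/+ than in WT in every pair, and in introns single libraries lie between 50.4% and 73.8% and diffuse libraries between 16.7% and 51.9%.

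Relative to beta, the intron per exon value of alpha was 2.17 to 4.07 times as high in single and 0.646 to 2.09 times as high in diffuse libraries. The quotient was lower in diffuse than in single mice by 1.07 to 1.23 on the log2 scale in the 4 comparisons, with no overlap (exact permutation adjusted p = 0.00794 for each, n = 5 each). How completely the different beta genes of the haplotypes were counted was not tested here either. In WT mice the haplotype cannot be told apart from the code series, save for WT single number 3. That mouse had 3.61 in bone marrow and 2.51 in spleen, against 2.62 to 4.07 and 2.17 to 2.92 in the JAW mice. The genotype comparisons did not pass, with log2 values of -0.19 and -0.29 in bone marrow and 0.38 and 0.41 in spleen (exact permutation adjusted p from 0.0952 to 0.246, n = 5 each). The spleen values without the 4 libraries of low intron count were 0.30 and 0.048 (exact permutation adjusted p = 0.254 and 0.464, 3 against 5). In WT mice the quotient was lower in spleen than in bone marrow, by 0.50 on the single and 0.66 on the diffuse haplotype (exact permutation adjusted p = 0.0317 for each). Without the 4 libraries of low intron count these values were -0.42 and -0.30 and did not pass (exact permutation adjusted p = 0.214 and 0.286), while limma with the mouse as a replicate block gave -0.46 and -0.44 and called both (adjusted p = 0.00338 for each). Leaving out 1 library ended the single call for bone marrow 1, 3 or 5 or spleen 2 to 5 (-0.60 to -0.44 over all 10), and the diffuse call for any bone marrow library or spleen 4 (-0.76 to -0.50). The th3/+ effect differed between the tissues by 0.57 on the single and 0.71 on the diffuse haplotype (residual permutation adjusted p = 0.0377 and 0.0461, 5 libraries a group). Without these libraries the differences were 0.49 and 0.34 and did not pass (residual permutation adjusted p = 0.142 for each), and with the block they were 0.53 and 0.48 and were called (limma adjusted p = 0.00459 for each). The diffuse call was also lost when any 1 of 13 of its 20 libraries was left out, all 5 spleen th3/+, spleen WT 4 and 5, bone marrow th3/+ 1 to 4 and bone marrow WT 2 and 3, with values of 0.54 to 0.81. The single call was kept in all 20.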

How the data were processed

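Per the labels' protocols, Ter119+ cells were taken from bone marrow or spleen with anti-Ter-119 beads and libraries were made with a stranded total RNA kit. The authors deposited raw counts of reads per globin gene, for exons and introns apart, and a ratio of alpha to beta counts, which differed from the ratio recomputed here by at most 0.00109 and was used only for this check. STAR 2.7.9a, STAR 2.5.3a, SAMtools, HTSeq and mm10 are named in the submitters' processing notes. Their roles, the strand setting and the handling of multiply mapped reads are not given in the sources used here. The deposited sheet names the alpha exon sum HBA Gene, and that sum minus the intron sum HBA Exon. It names the exon sum plus the intron sum Hba including introns. The names HBA Gene and HBA Exon treat the exon columns as holding intron reads, and the last name does not. The sheet does not state which applies. Alpha intron counts were at most 0.280% of alpha exon counts, which bounds the effect.

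Rows of the table name a group and a mouse code, not a GEO replicate. Libraries were numbered in table order within a group, and the same number in both tissues of a genotype and haplotype is the same mouse, by its code. The deviations of a mouse's libraries from their group means correlated between tissues by -0.173 to 0.527 over the 11 measures (20 mice, a description).

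Each measure is the log2 of a quotient of counts within a library, so no library total was needed. Hba-a2 shares and intron per exon values used uniquely assigned reads. Alpha sums included shared reads. Each of 11 measures was tested in 12 contrasts by a two-sided exact permutation test over the 252 splits of 5 against 5, with a smallest p of 0.00794, and 95% intervals came from inverting it. Differences of effects were tested by 100000 permutations of residuals, without pairing the tissues of a mouse. P-values were adjusted by Benjamini-Hochberg over the 4 contrasts of a kind within a measure, with a threshold of 0.05, and over the 2 differences of effects that a fit with the mouse as block can give. Means ± SD are of linear values, and log2 differences are of mean log2 values. Alternatives were limma 3.58.1, edgeR 4.0.16 (offset by the log of the denominator), a linear scale, other treatments of shared reads, a mouse block, adjustment over all tests and leaving out each library. Added after the data were seen were results without 4 libraries of low intron count and a sign-flip test over mice. Scripts were tested on simulated data. The software was R 4.3.3 and Python 3.11.15, with scipy 1.17.1, numpy 2.4.6 and, for the figures, matplotlib 3.10.9 (tables with pandas 2.3.3). The rule for named genes took both alpha genes and their shared reads. The genes, measures and tests were chosen with earlier results of these data known.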

Additional observations from a re-analysis of the deposited data

Results flagged for a closer look

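A test for a lone library in groups of 5 picked 5 of 88 groups, where chance gives about 1 in 20. The Hba-a2 share of exon counts was 37.9% in th3/+ single spleen number 2, against 38.8% to 39.1% in the other 4. Alpha made up 21.0% of globin exon counts in WT diffuse spleen number 5, against 26.3% to 27.2%. Reads shared by both genes took 29.1% of alpha exon counts in WT diffuse spleen number 4, against 31.5% to 32.2%, and 31.2% in WT single spleen number 1, against 34.1% to 34.5%. They took 85.6% of alpha intron counts in th3/+ single bone marrow number 2, against 82.9% to 83.2%.

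Of 44 tests of whether the th3/+ effect differs between tissues or haplotypes, 4 passed, all between spleen and bone marrow. On the single haplotype the log2 difference was 1.20 for Hba-a2 intron per exon counts and 1.14 for the alpha sum (residual permutation adjusted p = 0.0294 and 0.0425). For alpha relative to beta it was 0.57 on the single and 0.71 on the diffuse haplotype (residual permutation adjusted p = 0.0377 and 0.0461). None of the 4 passed this test without the 4 WT spleen libraries of low intron count, whereas limma with the mouse as a replicate block called all 4 without them (adjusted p from 0.00459 to 0.0456).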

How the results depend on the processing

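Counts of calls are out of 4 comparisons, with the main count first. With shared reads split evenly, genotype calls went from 0 to 1 for the Hba-a2 intron share, from 1 to 0 for Hba-a2 intron per exon and from 1 to 4 for the quotient of the genes. Tissue calls went from 2 to 1 for the intron share and the quotient, and differences of effects from 0 to 1 for Hba-a1. The log2 values were -0.042, -0.015 and -0.017 for the intron share (single and diffuse bone marrow, single spleen), 0.67 for Hba-a2 intron per exon (single spleen), and for the quotient 0.050 (single bone marrow, genotype), -0.029 and -0.013 (WT diffuse and th3/+ single, tissue). Values with an even split also follow the share of unassigned reads, so they do not decide how the genes differ. With shared reads left out, differences of effects on the alpha exon share went from 0 to 1.

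With limma, genotype calls went from 1 to 2 for Hba-a2 intron per exon (1.00 in diffuse spleen) and from 0 to 2 for the shared exon share. With edgeR they went from 1 to 0 (0.89 in single spleen) and from 0 to 2, and haplotype calls of the shared exon share from 0 to 1. Tissue calls went from 0 to 2 for the Hba-a2 exon share, from 1 to 2 for the alpha sum and from 0 to 1 for both alpha shares with either tool, and for each gene's intron per exon from 1 to 2 with limma and 1 to 0 with edgeR. Differences of effects went from 1 to 0 for Hba-a2 and the alpha sum, and from 0 to 1 for the alpha exon share, with either tool.

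With adjustment over all tests, the Hba-a2 exon share in diffuse bone marrow (-0.078) lost its call. Differences of effects fell to 0 for Hba-a2, the alpha sum and alpha relative to beta, and tissue calls to 1 for the shared intron share and the quotient and 0 for alpha relative to beta.

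Without the 4 WT spleen libraries of low intron count, genotype calls fell to 0 for Hba-a2 intron per exon (0.47 in single spleen) and the quotient. Tissue calls fell to 0 for Hba-a1, Hba-a2, the alpha sum and alpha relative to beta, and to 1 for the intron share and the quotient. Differences of effects fell to 0 for Hba-a2, the alpha sum and alpha relative to beta, and haplotype calls of the alpha exon share to 2. In diffuse spleen the sign turned for Hba-a1 (-0.047) and the alpha sum (-0.27). Fewer samples also raise the smallest p, and both lost genotype calls were at that smallest p in single spleen.

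Tissues come from the same mice. With the mouse as a replicate block, limma's tissue calls were 2 for the Hba-a2 exon share, Hba-a1, Hba-a2 and the alpha sum, 1 for each alpha share and 4 for the shared intron share. The first 6 counts were the same without the block. With the block and without the 4 libraries, limma's tissue calls were 0 for the Hba-a2 exon share, Hba-a1, Hba-a2 and the alpha intron share, 2 for the alpha sum and the alpha exon share and 4 for the shared intron share. With within-mouse differences permuted, 3 differences of effects gained a call, 1.37 for the alpha sum (diffuse), -0.39 for the alpha exon share and 0.18 for the alpha intron share (single), each with an exact permutation adjusted p of 0.0476. Genotype and haplotype contrasts compare different mice, so they were not paired.

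Leaving out each library gave -0.094 to -0.060 for the Hba-a2 exon share in diffuse bone marrow and 0.78 to 1.24 for Hba-a2 intron per exon in single spleen. Among the genotype differences the sign turned in 2 uncalled ones, -0.029 to 0.023 (quotient, single bone marrow) and -0.0037 to 0.059 (intron share, single spleen), and it turned in other uncalled differences too. The linear scale moved no count of calls by over 1.5 times. The cause of these changes was not tested. Intron counts as low as 36 per gene limit the precision.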

Other observations

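The sign-flip test over mice, chosen after the data were seen, was also run on the other measures, with p-values adjusted over all 11. Each is given for 20 mice and for the 16 whose spleen library was not among the 4 of low intron count. From bone marrow to spleen the intron per exon count of Hba-a1 was lower in 13 of 20 mice (mean log2 difference -0.54, exact permutation adjusted p = 0.0304) and in 9 of 16 (-0.090, exact permutation adjusted p = 0.432). That of Hba-a2 was lower in 10 of 20 (-0.43, exact permutation adjusted p = 0.0976) and in 6 of 16 (0.025, exact permutation adjusted p = 0.798). The alpha sum was lower in 16 of 20 (-0.71, exact permutation adjusted p = 0.00164) and in 12 of 16 (-0.29, exact permutation adjusted p = 0.0210). So the mean for Hba-a1 lost its call without the 4 mice, which were picked for low intron values. That for the sum kept its call at a smaller size.

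The quotient of Hba-a2 over Hba-a1 was higher in 16 of 20 (0.11, exact permutation adjusted p = 0.00588) and in 13 of 16 (0.11, exact permutation adjusted p = 0.0210). The alpha share of globin introns was lower in 16 of 20 (-0.20, exact permutation adjusted p = 0.00588) and in 12 of 16 (-0.064, exact permutation adjusted p = 0.0912). Alpha relative to beta intron per exon was lower in 14 of 20 (-0.26, exact permutation adjusted p = 0.0145) and in 10 of 16 (-0.13, exact permutation adjusted p = 0.168). The alpha share of globin exons (0.059 and 0.071) and the share of exon reads assigned to neither gene (0.0034 and -0.0061) did not pass in either set (exact permutation adjusted p from 0.361 to 0.875 and from 0.384 to 0.798).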
